A study of Mus musculus with 5 samples.

Results

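Nuclear genes for the respiratory chain and the ATP synthase were followed in mouse embryonic stem (ES) cells in which the chromatin organiser Satb1 had been switched on. Genes were taken by name, as those with symbols starting in Nduf (complex I), Sdha to Sdhd (complex II), Uqcr (complex III), Cox4i, Cox5, Cox6, Cox7 or Cox8 (complex IV) and Atp5 (complex V). That gave 93 genes of the 19938 genes on the array that had a probe set with a single gene symbol, with 43 in complex I, 8 in complex II, 8 in complex III, 17 in complex IV and 17 in complex V. They came from 119 such probe sets, and a gene with several was represented by the one whose average over the 5 arrays was highest. Because the rule goes by symbol, the 93 genes also hold 11 assembly factors (7 Ndufaf and 4 Sdhaf genes), which build complexes I and II without being part of them. They also hold 8 isoforms that were listed here as tissue-limited, Ndufa4l2 among them.

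The +DOX group held 3 arrays of ES cells labelled as tetO-Satb1 and as overexpressing Satb1, in which doxycycline (DOX) was present for the last 24 h before RNA was made. The no DOX group held 2 arrays of ES cells that also carried tetO-Satb1 and received no DOX. RNA of both groups was taken 48 h after passage, from cultures in medium with LIF and 15% serum. The treatment notes place all cells on irradiated feeders for the first day, whereas the series' design text speaks of LIF alone. Feeders were reduced by letting the suspension settle for 10 min and keeping its upper 50%. The sources used here do not name the strain, the clone or the doxycycline-dependent activator, an array of cells with DOX and no transgene was not analysed here, and no label states whether replicate arrays stem from different cultures, so p-values measure only the spread between these arrays.

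The respiratory chain passes electrons from NADH (through complex I) and from succinate (through complex II) to ubiquinone, then through complex III and cytochrome c to complex IV, where oxygen is reduced. Complexes I, III and IV pump protons across the inner mitochondrial membrane, and complex V, the ATP synthase, lets them flow back to make ATP. All complexes but complex II also hold subunits encoded by mitochondrial DNA, so their assembly draws on both genomes. Pluripotent cells have active glycolysis alongside respiration, and the low-oxygen response led by HIF factors is known to restrain respiration in mammalian cells.

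Values are the deposited log2 levels, and a change is the +DOX mean minus the no DOX mean. Satb1 was 8.61, 8.79 and 8.68 on the +DOX arrays, against 4.95 and 5.34 on the no DOX arrays, a change of 3.55 (SE 0.15). Its adjusted p was 0.229 by limma, adjusted over the whole table by the Benjamini-Hochberg method, and 0.0038 when limma's variance prior came from the 1800 genes with 5 distinct values. That second setting matters because many probe sets held exactly equal values on several arrays, which makes their spread too small; 95% intervals given here use it. Pairs of arrays correlated at Pearson r of 0.9972 to 0.9979 across genes, which are not independent replicates. All 10 ES cell markers, such as Pou5f1 and Sox2, lay above the median gene level. Of the 10, 2 had a higher, 7 a lower and 1 the same mean in +DOX, with a median change of -0.0036. Klf4 (-0.35) and Tdgf1 (-0.21) among them were lower in +DOX without overlap, 20% of the list against 3.08% of all genes. Both were short of the test (limma adjusted p 0.770 each). Of the 24 measured feeder fibroblast markers, 12 also lay above the median gene level. This list averaged 5.29, 5.31 and 5.32 on +DOX arrays, against 5.29 and 5.29 on no DOX arrays. In it, 14 genes were higher and 8 lower in +DOX. Lox (-0.20) was the 1 without overlap (4.17% below, against 3.08% of all genes). The part of either list in the results was not tested. In bulk RNA, fewer cells of a type and less RNA per cell cannot be told apart.

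Respiratory chain transcripts were nearly level between the groups. Among the 93 genes, 38 had a higher mean in +DOX, 52 a lower mean and 3 the same mean, and the median change was -0.0066 (interquartile range -0.0366 to 0.0255). Over all 19938 genes, 7901 had a higher and 9026 a lower mean, and the median change was 0. A change of under 0.1 in either direction held for 87 of the 93 genes (93.5%), compared with 85.8% of all genes. The median size of the change was not smaller in the 93 genes, at 0.0356 against 0.0312 in all genes. Of all genes, 3011 had the same mean in both groups. The 6 exceptions were Cox6a2 (0.18), Ndufa1 (0.15), Ndufa12 (0.15) and Uqcr11 (0.13) on the higher side, and Ndufa4l2 (-0.33) and Cox6a1 (-0.13) on the lower side.

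**Figure D1:**
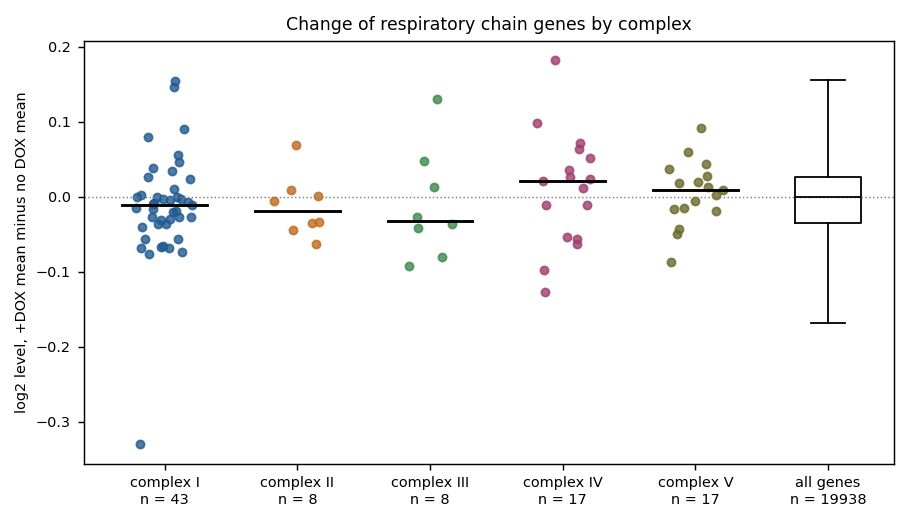
Log2 change (+DOX mean minus no DOX mean, vertical axis) of the 93 genes by complex, with a point per gene, spread sideways at random, and a bar at the median of each complex; the box on the right holds all 19938 genes, with its interquartile range, median and whiskers over the central 95%. Medians of the 5 complexes lie between -0.032 (complex III) and 0.021 (complex IV), and the point farthest from 0 is Ndufa4l2 at -0.33.

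None of the 93 genes passed an adjusted p of 0.05 by limma in either direction, where 0.0100% of all genes passed as higher and 0.00502% as lower. At an unadjusted p under 0.05, 1 of the genes was higher (Cox6b2) and 0 were lower, against 0.481% and 1.07% of all genes. With the variance prior taken from those 1800 genes, 0 of the 93 passed at either level. With 5 arrays there are 10 ways of choosing the +DOX arrays, and exact permutation for any one gene stops at a p of 0.1. For 92 of the 93 genes, the 95% interval of the change lay within 1.5-fold in either direction (0.58 on the log2 scale). The same held for 19645 of all 19938 genes. Of the 93, Ndufa4l2 was the exception, with an interval of -0.73 to 0.07. In Ndufa3, Ndufa5 and Ndufv3, which had 1 value on all 5 arrays, the interval of -0.135 to 0.135 came from the prior alone.

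**Figure D2:**
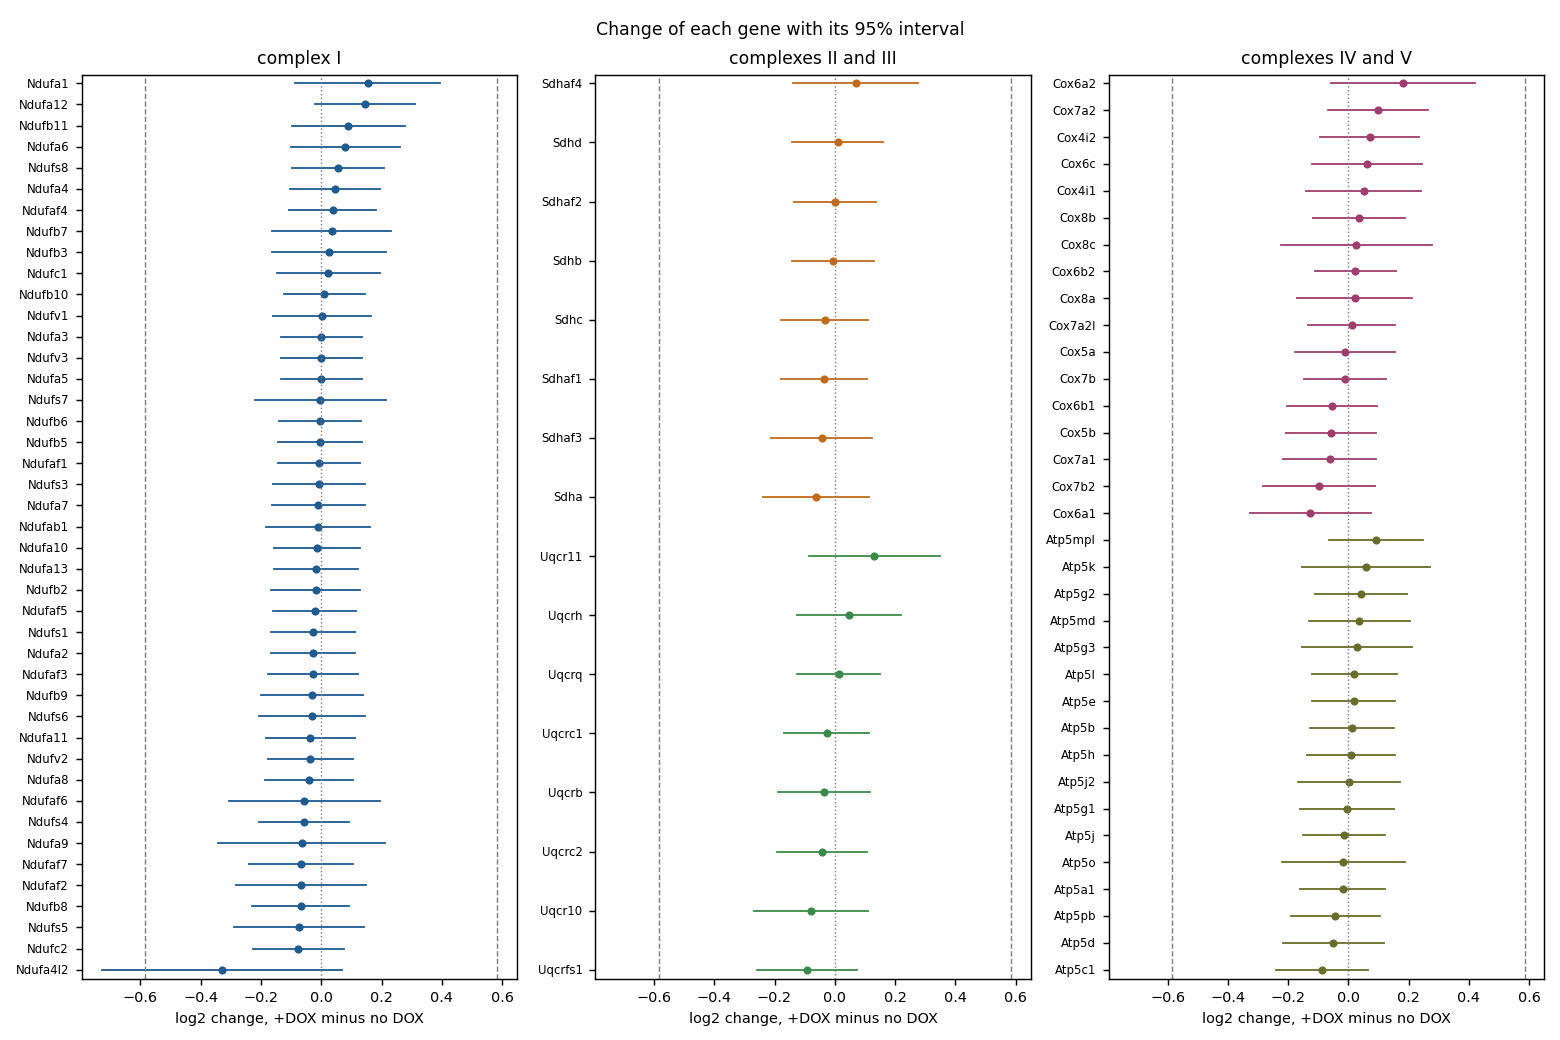
Log2 change of each of the 93 genes (point) with its 95% interval (line), in panels by complex and sorted by change within a complex; dashed lines stand at a 1.5-fold change and the dotted line at 0. Every interval includes 0, and that of Ndufa4l2 alone reaches past a dashed line.

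The mean level of the 93 genes was 7.252, 7.251 and 7.243 on the +DOX arrays, against 7.247 and 7.260 on the no DOX arrays, or 7.249 ± 0.0048 (SD, n = 3) against 7.254 ± 0.0090 (SD, n = 2). The groups overlapped: +DOX replicates 1 and 2 lay between the no DOX arrays, and +DOX replicate 3 was the lowest of the 5. Of the 93 genes, 84 lay above the median level of all genes. In 16 of them (17.2%) the 3 +DOX values were identical, compared with 28.9% of all genes, and 3 complex I subunits, Ndufa3, Ndufa5 and Ndufv3, had 1 value on all 5 arrays.

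Groups were also compared by whether their arrays overlapped. Every +DOX array was above both no DOX arrays in 5 of the 93 genes (5.38%), against 1.65% of all genes, and below both in 2 (2.15%), against 3.08% of all genes. Those above were Cox6a2, Cox6b2 and Cox7a2 of complex IV and Ndufa1 and Ndufa12 of complex I, and those below were Uqcrfs1 of complex III and Atp5c1 of complex V. The share above was 6.45% of the 93 with the mean of a gene's probe sets, against 1.81% of all genes, 5.95% of those over the median level, against 1.57% of all such genes, and 6.45% with arrays centred on their medians, against 3.07%. It was near the background among the 25 genes without ties in either group, where 1 lay above (4.0%), against 3.80% of all such genes, and after a further quantile normalization, where 12 lay above (12.9%), against 14.4%. The share below was 4.30% with the mean of probe sets, against 3.33% of all genes, 7.53% after quantile normalization, against 6.10%, and 11.8% with centred arrays, against 10.5%. Leaving out no DOX replicate 1 gave 17 above and 24 below (18.3% and 25.8%, against 12.8% and 18.2% of all genes), and leaving out no DOX replicate 2 gave 24 above and 17 below (25.8% and 18.3%, against 14.5% and 14.9%).

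**Figure D3:**
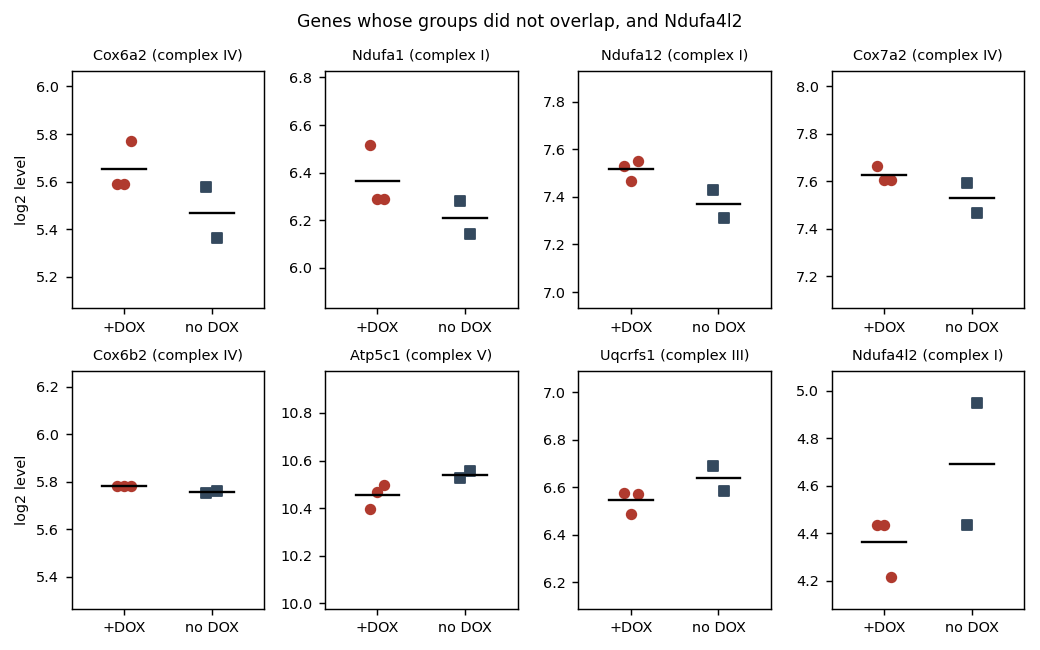
Log2 level on each array (+DOX, circles, 3 arrays; no DOX, squares, 2 arrays; bars are group means) of the 7 genes whose groups did not overlap and of Ndufa4l2, each panel spanning 1 log2 unit. Gaps between the groups are narrow, and in Ndufa4l2 a single no DOX array at 4.95 stands apart.

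Complex I oxidises NADH. Its core subunits, which carry the flavin and the iron-sulphur clusters, are conserved from bacteria, and 6 of the nuclear ones were measured. They had a median change of -0.0062, with 2 higher and 4 lower in +DOX, and the widest of their intervals ran from -0.22 to 0.21. Ndufs1, the large iron-sulphur subunit, was 8.53, 8.53 and 8.50 in +DOX, against 8.53 and 8.57 in no DOX. Ndufv1, which binds the flavin and NADH, was 7.75, 7.84 and 7.70 in +DOX, against 7.76 and 7.76 in no DOX. Both sets of values overlapped. Ndufs8, another iron-sulphur subunit, had 6.49 on every +DOX array, against 6.49 and 6.38 in no DOX, a change of 0.06 that rested on no DOX replicate 2. For Ndufv2, an iron-sulphur partner of Ndufv1, the change was -0.04 (95% interval -0.18 to 0.10), and for Ndufs3, a core subunit without a cluster, it was -0.01 (-0.16 to 0.14). Ndufs7, which holds the last iron-sulphur cluster before ubiquinone, had 7.49, 7.54 and 7.54 in +DOX, between 7.40 and 7.65 in no DOX; its change was -0.0035, but -0.13 without no DOX replicate 1 and 0.12 without no DOX replicate 2.

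The 30 other complex I genes apart from assembly factors had 9 higher, 18 lower and 3 equal means and a median of -0.0100. Ndufa12, an accessory subunit, was 7.53, 7.47 and 7.55 in +DOX, against 7.43 and 7.31 in no DOX. Its groups did not overlap, and the change was 0.15 (95% interval -0.02 to 0.31; limma adjusted p 0.770). Ndufa1, a small membrane subunit encoded on the X chromosome, was 6.52, 6.29 and 6.29 in +DOX, against 6.28 and 6.14 in no DOX. The groups were separated by under 0.1 and the change of 0.15 had an interval of -0.09 to 0.39 (limma adjusted p 0.770). Ndufa4, named for complex I but now counted to complex IV, had a change of 0.05 (-0.10 to 0.19), and Ndufb10, an accessory membrane subunit, one of 0.01 (-0.13 to 0.15).

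Assembly factors of complex I, Ndufaf1 to Ndufaf7, had 1 higher and 6 lower means. Their mean level was 6.096, 6.110 and 6.121 in +DOX, against 6.143 and 6.135 in no DOX, so that the groups of the list mean did not overlap. The median change was -0.0277, none passed the test, and 0 of the 7 genes had groups that did not overlap. A list mean without overlap was not particular to these genes. The mean over all 19938 genes was 5.236, 5.239 and 5.236 in +DOX, against 5.241 and 5.242 in no DOX. Of the complex V parts described below, the mean of the F1 genes was also lower without overlap, and that of the other membrane genes higher.

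Ndufa4l2 stood farthest from 0. It is a paralogue of Ndufa4 that HIF-1 induces in low oxygen and that is known to lower complex I activity. Its values were 4.43, 4.43 and 4.22 in +DOX, against 4.43 and 4.95 in no DOX. The groups overlapped at the value of 4.43, which 3 of the 5 arrays shared, and only no DOX replicate 2 was high. The change of -0.33 (95% interval -0.73 to 0.07; limma adjusted p 0.770) was -0.07 without that array and -0.59 without no DOX replicate 1.

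Complex II, succinate dehydrogenase, joins the citric acid cycle to the chain and is built from nuclear genes alone. Its 8 genes had 3 higher and 5 lower means, with a median of -0.0196. Sdha, the flavoprotein that oxidises succinate, was 8.90, 8.84 and 8.75 in +DOX, against 8.94 and 8.85 in no DOX, with overlapping groups and a change of -0.06 (95% interval -0.24 to 0.11). The change of Sdhb, the iron-sulphur subunit, was -0.01 (-0.14 to 0.13). The membrane anchors Sdhc and Sdhd had changes of -0.03 (-0.18 to 0.11) and 0.01 (-0.14 to 0.16). Sdhaf4, an assembly factor that acts on Sdha, had 4.72, 4.72 and 4.93 in +DOX, against 4.72 and 4.72 in no DOX, so its change of 0.07 came from +DOX replicate 3 alone.

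Complex III passes electrons from ubiquinol to cytochrome c. Of its 8 genes, 3 had higher and 5 lower means, and the median was -0.0320. Uqcrfs1, the Rieske iron-sulphur protein, was 6.57, 6.49 and 6.57 in +DOX, against 6.69 and 6.58 in no DOX. Its groups did not overlap, though the nearest values lay within 0.1 of each other, and the change was -0.09 (95% interval -0.26 to 0.07; limma adjusted p 0.770). Uqcrb, a subunit near the ubiquinone site, was 9.52, 9.48 and 9.52 in +DOX, against 9.59 and 9.49 in no DOX, with overlapping groups and a change of -0.04 (-0.19 to 0.12).

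Uqcr11, a small subunit of complex III, gave opposite answers from its probe sets. The probe set with the higher mean had 5.66, 5.86 and 5.66 in +DOX, against 5.53 and 5.66 in no DOX, a change of 0.13 with overlapping groups. A second probe set named for the gene had 5.59, 5.16 and 5.59 in +DOX, against 5.73 and 5.70 in no DOX, a change of -0.27 with groups that did not overlap. +DOX replicate 2 was the highest array in the first and the lowest in the second. The mean of both gave -0.07, so no direction is given for Uqcr11.

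The 18 genes with several probe sets had 26 further ones. Of these, 17 gave the same sign as the probe set used and 9 the opposite sign, each in a different gene, and 24 gave a change within 0.1 of it. Apart from Uqcr11, the exception was Atp5pb, which forms the peripheral stalk of the ATP synthase, at 0.10 against -0.04. Genes with an opposite sign also included Ndufs3, at 0.0064 against -0.0088, and Sdhaf4, at -0.0087 against 0.0692. The 6 probe sets that carried a member symbol together with another symbol, for Cox7c, Ndufb4 and Ndufs5, were left out, and 0 of them had groups that did not overlap.

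**Figure D4:**
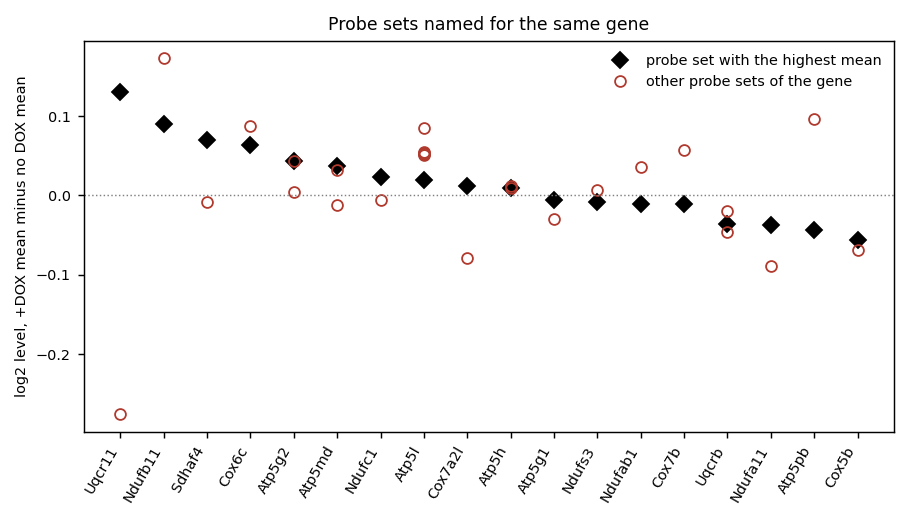
Log2 change (+DOX mean minus no DOX mean) of every probe set of the 18 genes with several; black diamonds are the probe sets used and open red circles the others. The 2 probe sets of Uqcr11, at 0.13 and -0.27, lie farthest apart.

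Complex IV, cytochrome c oxidase, reduces oxygen to water, and its nuclear subunits surround a core encoded by mitochondrial DNA. Of the 17 genes, 10 had higher and 7 lower means, with a median of 0.0207. That sign depended on +DOX replicate 3: the median was -0.0106 without it. Cox5b, a zinc-binding subunit, was 9.00, 9.00 and 8.97 in +DOX, against 9.09 and 9.00 in no DOX, with a change of -0.06 (95% interval -0.21 to 0.09). Cox7a2, the isoform of subunit VIIa found in most tissues, was 7.67, 7.61 and 7.61 in +DOX, against 7.59 and 7.46 in no DOX. Its groups did not overlap, with a change of 0.10 (-0.07 to 0.26; limma adjusted p 0.770). Cox6a1, the widespread isoform of subunit VIa, which was picked after its values were seen, had 6.92, 6.87 and 6.91 in +DOX, against 6.92 and 7.14 in no DOX, so that its change of -0.13 came from no DOX replicate 2.

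Isoforms known from heart and muscle, testis or lung made up 7 of the complex IV genes. Cox6a2, the heart and skeletal muscle isoform of subunit VIa, was 5.59, 5.59 and 5.77 in +DOX, against 5.58 and 5.36 in no DOX. No array overlapped, yet the nearest values differed by under 0.1, and the change of 0.18 had an interval of -0.06 to 0.42 (limma adjusted p 0.770). Cox6b2, a testis isoform, had 5.78 on all 3 +DOX arrays, against 5.75 and 5.76 in no DOX. Its unadjusted limma p of 0.0052 rested on a change of 0.02 and on an SD of 0 in +DOX; the adjusted p was 0.770. Cox7a1 and Cox8b, of heart and skeletal muscle, had changes of -0.06 (-0.22 to 0.09) and 0.04 (-0.12 to 0.19). Cox7b2 and Cox8c, of testis, had changes of -0.10 (-0.28 to 0.09) and 0.03 (-0.22 to 0.28). Cox4i2, a lung isoform of subunit IV that low oxygen induces, was 4.96, 4.96 and 5.07 in +DOX, against 4.89 and 4.96 in no DOX, a change of 0.07 with overlapping groups. Together with Ndufa4l2, 5 of the 8 isoforms had higher and 3 lower means, and 3 of the 8 lay above the median level of all genes.

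Complex V makes ATP. Its 17 genes had 10 higher and 7 lower means and a median of 0.0093, and all 17 changes were under 0.1 in size. The 5 genes of the catalytic F1 head and its central stalk had a median of -0.0194, the 3 genes for the proton-carrying c ring 0.0274, the 4 peripheral stalk genes -0.0156 and the 5 other membrane genes 0.0369. All 5 of these membrane genes had higher means, and 0 of them had groups that did not overlap. Atp5c1, the gamma subunit that turns inside the F1 head, was 10.40, 10.47 and 10.50 in +DOX, against 10.53 and 10.56 in no DOX. Its groups did not overlap, and the change was -0.09 (95% interval -0.24 to 0.06; limma adjusted p 0.770). Atp5b, the catalytic beta subunit, was 11.31, 11.27 and 11.27 in +DOX, against 11.27 and 11.27 in no DOX, with a change of 0.01 (-0.13 to 0.15). Atp5e, the epsilon subunit of the central stalk, had a change of 0.02 (-0.12 to 0.15).

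Start regions of 77 of the 93 genes were found in RefSeq (GRCm38.p6) and searched on both strands over the 250 bases before the first listed start. The shares of all start regions beside them cover RefSeq genes whether or not the array measured them, a set unlike the 19938 genes. Genes for the chain are textbook targets of NRF1, of ETS factors such as GABPA, and of YY1. The NRF1 motif GCGCNTGCG stood in 16 of the 77 (20.8%), against 5.4% of all 27025 start regions; the ETS motif CCGGAAG stood in 14 (18.2%), against 7.05%; and the YY1 motif ANATGGCG stood in 4 (5.19%), against 2.11%. The core letters of HIF sites, ACGTG and GCGTG, stood in 20.8% and 40.3% of the 77, against 16.6% and 28.2% of all. The TATA box letters TATAAA stood in 9.09%, against 13% of all, and A and T made up a median of 42.8% of the bases, against 48% in all. A match is a description of letters and not evidence of binding. By complex, the NRF1 motif stood in 8 of 38 (I), 2 of 7 (II), 0 of 5 (III), 1 of 12 (IV) and 5 of 15 (V) start regions.

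The start regions below, read towards the gene, belong to 4 of the genes without overlap between the groups and to Cox6a1, shown for its 3 NRF1 matches, a number that Sdha shared; capitals mark NRF1, ETS and YY1 matches. In Cox6a1, 2 of its 3 NRF1 matches overlap on opposite strands, and 1 ETS match follows. Ndufa12 has 1 NRF1 match and Ndufa1 has 1 YY1 match. Uqcrfs1 and Atp5c1 have no match to these 3 motifs, and neither do Cox6b2 and Cox7a2, whose start regions are not printed.
Ndufa12, chr10:94198785-94199034, plus strand: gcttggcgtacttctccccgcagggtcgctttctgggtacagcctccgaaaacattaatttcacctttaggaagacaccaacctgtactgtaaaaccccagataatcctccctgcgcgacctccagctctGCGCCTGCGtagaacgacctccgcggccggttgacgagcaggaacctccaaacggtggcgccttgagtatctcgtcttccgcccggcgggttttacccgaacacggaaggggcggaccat
Ndufa1, chrX:37191239-37191488, minus strand: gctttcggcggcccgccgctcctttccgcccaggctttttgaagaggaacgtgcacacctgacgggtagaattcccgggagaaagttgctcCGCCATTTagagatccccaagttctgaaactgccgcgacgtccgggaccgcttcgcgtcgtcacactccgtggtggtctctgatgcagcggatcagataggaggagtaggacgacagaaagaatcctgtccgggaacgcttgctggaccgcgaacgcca
Cox6a1, chr5:115348959-115349208, minus strand: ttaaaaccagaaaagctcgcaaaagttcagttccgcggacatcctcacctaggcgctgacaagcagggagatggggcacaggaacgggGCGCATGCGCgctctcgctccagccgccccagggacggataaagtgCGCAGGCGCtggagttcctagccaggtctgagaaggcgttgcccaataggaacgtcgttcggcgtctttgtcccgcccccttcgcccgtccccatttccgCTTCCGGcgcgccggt
Uqcrfs1, chr13:30545317-30545566, minus strand: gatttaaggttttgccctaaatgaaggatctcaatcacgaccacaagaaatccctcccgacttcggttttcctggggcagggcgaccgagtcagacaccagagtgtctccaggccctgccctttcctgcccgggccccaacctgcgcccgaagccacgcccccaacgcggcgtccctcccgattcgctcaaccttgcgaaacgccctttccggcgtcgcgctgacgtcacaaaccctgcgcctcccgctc
Atp5c1, chr2:10080511-10080760, minus strand: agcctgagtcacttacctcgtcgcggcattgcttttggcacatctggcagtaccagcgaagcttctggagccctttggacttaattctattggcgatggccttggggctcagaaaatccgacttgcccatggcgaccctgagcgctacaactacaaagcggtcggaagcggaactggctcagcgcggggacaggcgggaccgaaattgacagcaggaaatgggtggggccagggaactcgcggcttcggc

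Other genes of oxidative metabolism were set beside the chain. Of 34 measured genes for cytochrome c, complex assembly and related steps that the name rule leaves out, 13 had higher and 20 lower means, with a median of -0.0074. Among 19 regulators of mitochondrial biogenesis, 4 had higher and 13 lower means, with a median of -0.0154. One of them, Tfb2m, a factor for transcription of mitochondrial DNA, was 6.30, 6.26 and 6.21 in +DOX, against 6.33 and 6.41 in no DOX, without overlap. Among 17 genes of the citric acid cycle and pyruvate dehydrogenase, 6 had higher and 9 lower means, with a median of -0.0051. Pdha1, a subunit of pyruvate dehydrogenase, was 9.64, 9.58 and 9.58 in +DOX, against 9.51 and 9.56 in no DOX, without overlap. Tfb2m and Pdha1 were the only genes of their lists without overlap. That made 5.26% of the regulators below, against 3.08% of all genes, and 5.88% of the cycle genes above, against 1.65%. The list of 34 genes had 0 such genes. In these 3 lists 0 genes passed the test, with limma adjusted p of 0.770 for Tfb2m and for Pdha1. Only 2 mitochondrially encoded genes had a probe set of their own symbol, COX2 of complex IV with a change of 0.0024 and ND3 of complex I with one of 0.16, both with overlapping groups.

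The HIF response list, chosen with earlier results of these data known, is shown as the contrasting case. Of its 21 measured genes, 19 had lower and 1 a higher mean in +DOX, with a median of -0.24, and in 16 (76.2%) every +DOX array was below both no DOX arrays, against 3.08% of all genes. Its mean level was 7.39, 7.32 and 7.33 in +DOX, against 7.64 and 7.64 in no DOX. Egln3, an oxygen-sensing prolyl hydroxylase, was 6.17, 5.80 and 6.01 in +DOX, against 6.92 and 6.87 in no DOX, a change of -0.90. Bnip3, a receptor for the removal of mitochondria, was 7.24, 6.82 and 7.18 in +DOX, against 8.06 and 7.86 in no DOX, a change of -0.88. None of the 21 passed the test after adjustment (limma adjusted p 0.770 for Egln3 and for Bnip3). At an unadjusted limma p under 0.05, 16 were lower, against 1.07% of all genes. The difference between this list and the respiratory chain genes was not tested.

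**Figure D5:**
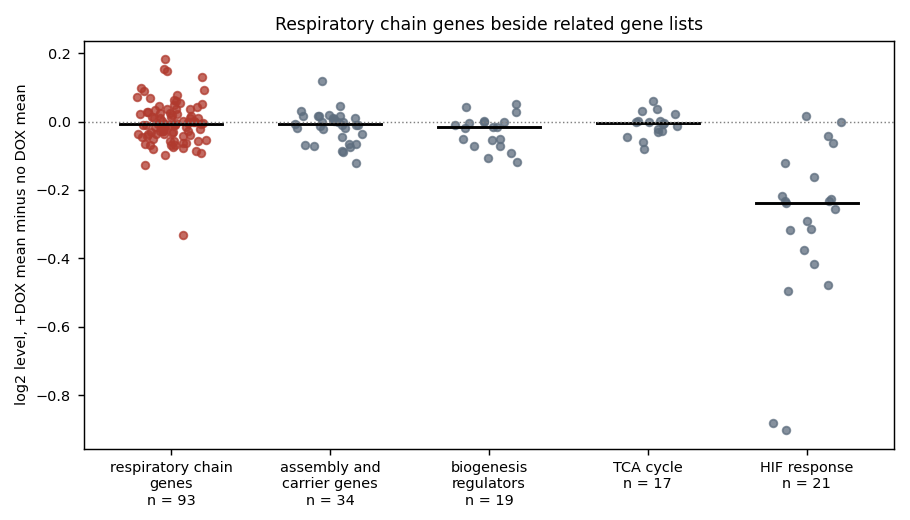
Log2 change (+DOX mean minus no DOX mean) of the 93 respiratory chain genes (red) and of 4 related lists (grey), with a point per gene, spread sideways at random, and a bar at each median; Higd1a stands in both the assembly and carrier list and the HIF response list. The first 4 columns centre near 0, while most HIF response genes lie below it, down to -0.90.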

How the data were processed

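Expression was measured on 5 one-colour arrays of biotin-labelled RNA. Per probe set (35557 in all), the deposited values are log2 levels that the authors obtained with RMA, per the submitters' processing notes; its version and software are not stated there. Values ran from 0.79 to 13.1. Gene symbols came from the annotation of the array (21789 with 1 symbol, 1621 with several, 12147 unlisted and unnamed here), all 93 members matched the RefSeq gene table by gene identifier, and no filter on low values was used.

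Groups came from the sample titles. All 19938 genes were fitted with limma 3.58.1 (lmFit, eBayes) in R 4.3.3, on all 5 arrays without covariates, with Benjamini-Hochberg adjustment and a threshold of 0.05; lists were described and not tested. Exact ties shrink limma's prior SD (0.0050 over all genes, 0.086 over the 1800 genes with 5 distinct values), so 95% intervals use the prior of those 1800 genes. Scripts were tested on simulated data. The members and lists were chosen with earlier results of these data known.

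Named genes were Satb1, complex I core subunits, tissue-limited isoforms, Sdha to Sdhd, up to 4 members per complex and direction without overlap between groups, the members with the highest and lowest mean per complex, and up to 2 genes per direction and list without overlap. Others named were chosen after their values were seen. Arrays with the same title number did not deviate together (r of -0.0063 and 0.0063 across genes), so the number was not used as a pairing. Alternatives changed the probe set rule, filter, scaling, variance prior, ties, block, feeder covariate and arrays included. Precision is limited by the number of arrays.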

Additional observations from a re-analysis of the deposited data

How the results depend on the processing

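The median of -0.0066 over the 93 genes was 0.0075 after a further quantile normalization, 0 with the feeder marker mean as a covariate, and -0.0113 to 0 with an array left out. Complex II (-0.0196) had -0.0333 among genes above the median level, -0.0053 after quantile normalization, -0.0629 for its 1 gene without ties, -0.0034 with the feeder covariate and -0.0270 to -0.0024 with an array left out. Complex III (-0.0320) had -0.0381 to 0.0026 with an array left out, and complex IV (0.0207) had -0.0130 with the feeder covariate and -0.0106 to 0.0169 with an array left out. Complexes I and V moved by less than the spread between arrays in all 14 alternatives.

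With the title number as a replicate block, 0 genes passed as higher and 0 as lower, the members' median was 0 and that of complex IV -0.0106; these coefficients are those without +DOX replicate 3, whose number has no partner.

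Over all genes, 2 passed as higher and 1 as lower. Both counts were 0 among genes above the median level, with centred arrays, after quantile normalization and with the feeder covariate; the higher count was 1 with the prior from distinct values, where the lower was 0, and 1 among genes without ties. With an array left out, 0 to 1051 genes passed as higher and 0 to 1097 as lower, and 0 to 5 and 0 to 8 of the members. Those member calls came without no DOX replicate 1 (4 higher and 8 lower; 4.43% and 5.50% of all genes) and without no DOX replicate 2 (5 higher and 3 lower; 5.27% and 4.65%), where the lone no DOX array is assumed to vary like the +DOX arrays. Members without overlap numbered 5 above (12 after quantile normalization, 1 among genes without ties, 6 to 24 with an array left out) and 2 below (4 with the mean of probe sets, 11 with centred arrays, 7 after quantile normalization, 3 to 24 with an array left out). Shares of all genes moved as well, with 1.65% above (14.4%, 3.80% among genes without ties, 2.82% to 14.5%) and 3.08% below (3.33%, 10.5%, 6.10%, 4.73% to 18.2%) under the same settings in the same order.

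Of the 31 named members, 12 changed sign under at least 1 alternative. Uqcr11 was -0.0720 with the mean of its probe sets. Ndufs3 was 0.0077, Ndufs7 0.0122 and Sdhb 0.0091 after quantile normalization. With the replicate block, Ndufs3 was 0.0001 and Cox8c -0.0286. With the feeder covariate, Sdha was 0.0318, Sdhb 0.0039 and Sdhaf4 -0.0463. With an array left out, Ndufs3 ran from -0.0532 to 0.0356, Ndufs7 from -0.1309 to 0.1240, Ndufv1 from -0.0351 to 0.0331, Sdhc from -0.0713 to 0.0046, Sdhd from -0.0355 to 0.0537, Uqcrb from -0.0862 to 0.0131, Cox8c from -0.0286 to 0.1193 and Atp5b from -0.0014 to 0.0194. The lowest adjusted p of a named member was 0.688 by limma with all arrays and 0.00017 with an array left out. Except where the construction of the alternative shows it, the cause was not tested.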
